A study of Homo sapiens with 6 samples.

Results

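The glypicans are the 6 genes *GPC1* to *GPC6*, of 18244 genes that have a probe set to themselves, and all 16 probe sets annotated to exactly 1 of them were taken from the 49393 probe sets other than controls on the array. *GPC1* and *GPC2* had 2 probe sets each, *GPC3* and *GPC4* 3 each, *GPC5* 2 and *GPC6* 4. The family was chosen by the difference of the *GPC3* values between replicate numbers, so that this difference is described below and not tested. The samples were SH-SY5Y cells, an established human neuroblastoma line used as a neuronal cell model. They were transfected with 15 pM of an anti-miR that blocks miR-137 (anti-miR-137, 3 arrays) or of a negative control anti-miR (3 arrays), both with the same lipid reagent, and RNA was taken 72 hours later. The arrays are numbered 1 to 3 within each group, and the labels do not say whether numbers stand for separate cultures. All p-values therefore rest on differences among arrays that could in part be technical. The stated purpose of the study was to find mRNAs that respond to loss of miR-137.

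Glypicans are heparan sulfate proteoglycans held on the outer face of the cell membrane by a glycosylphosphatidylinositol (GPI) anchor. Through their core proteins and sulfated sugar chains they bind Wnt, Hedgehog, FGF and BMP ligands and change how far these ligands spread and how strongly they signal. *GPC1*, *GPC2*, *GPC4* and *GPC6* form a subfamily by sequence, and *GPC3* and *GPC5* form the other. In the nervous system glypicans take part in axon guidance and in synapse formation, and *GPC2* is a surface antigen of neuroblastoma.

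The inhibitor was directed at miR-137, a brain-enriched microRNA encoded on chromosome 1. A microRNA pairs with its target mRNAs mainly through its seed, bases 2 to 8, which are in capitals in the mature strand below. The sequence is the RefSeq entry at chr1:98046091-98046113 of build GRCh38.p14, minus strand, and is shown because it is what the treatment blocks.
hsa-miR-137-3p: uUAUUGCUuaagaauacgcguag
The array had 0 probe sets named for miR-137 or its host RNA, and the block itself was not checked. The mRNAs of the glypicans were not searched for seed matches here.

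Values are log2 values per probe set after RMA, a normalization that makes the distributions of the arrays alike. Array medians lay between 6.39 and 6.43, and RNA integrity numbers between 9.5 and 9.8. A probe set is called dim here when its mean over the 6 arrays is under the 40th percentile of the means on the array, which was 5.69. The levels of different probe sets cannot be compared with each other, so the percentile of a probe set only says where its brightness stands on the array. Of the 12 noradrenergic neuroblastoma markers listed, 10 were measured and none was dim. Their mean log2 value was 12.49 to 12.57 with anti-miR-137 and 12.49 to 12.60 with the control. Of the 8 hepatic and yolk sac markers, a cell type known for *GPC3*, 7 were measured and 2 were not dim. Their mean log2 value was 4.75 to 4.89 with anti-miR-137 and 4.71 to 4.86 with the control. Of 6 measured markers of glia and Schwann cells, 3 were not dim, with means of 5.79 to 5.91 with anti-miR-137 and 5.82 to 5.89 with the control.

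Of the 16 glypican probe sets, 9 were not dim, and these belonged to *GPC1*, *GPC2*, *GPC3* and *GPC6*. All probe sets of *GPC4* and *GPC5* were dim, as were 2 of the 4 of *GPC6*. The brightest probe set of *GPC6* stood at percentile 91.7 of all probe sets, that of *GPC1* at 81.1, that of *GPC2* at 77.8 and that of *GPC3* at 65.2. The brightest of *GPC4* stood at percentile 28.3 and that of *GPC5* at 6.54.

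*GPC3* encodes an X-linked glypican whose loss causes the Simpson-Golabi-Behmel overgrowth syndrome, and whose product restrains Hedgehog signalling in the mouse. Its brightest probe set, 11729604_s_at, had log2 values of 8.19, 7.77 and 7.16 in anti-miR-137 replicates 1 to 3, against 8.11, 7.67 and 6.93 in control replicates 1 to 3. Probe set 11754011_x_at had 7.84, 7.50 and 6.93 with anti-miR-137, against 7.97, 7.69 and 6.84 in the control arrays. Probe set 11752479_a_at had 7.39, 6.79 and 6.32 with anti-miR-137, against 7.30, 6.90 and 6.44 in the control arrays. On all 3 probe sets both replicate 1 arrays were the highest, both replicate 3 arrays the lowest, and the treatment groups overlapped. The names of these probe sets end in _s_at, _x_at and _a_at. The first 2 endings mark sets whose probes can match other transcripts, and _a_at marks a set that matches several transcripts of 1 gene.

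*GPC2* encodes cerebroglycan, which is made by developing neurons in the rat. Probe set 11731829_x_at measured 9.05, 8.68 and 8.48 in anti-miR-137 replicates 1 to 3, against 9.11, 8.74 and 8.63 in control replicates 1 to 3. Probe set 11731828_at measured 8.94, 8.61 and 8.53 with anti-miR-137, against 9.11, 8.71 and 8.68 in the control arrays. On both, the replicate 1 arrays were the highest, and within every number the control array was the higher.

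*GPC6* encodes a glypican whose loss causes the skeletal disorder omodysplasia and whose product, like that of *GPC4*, is released by mouse astrocytes and promotes excitatory synapses. Its brightest probe set, 11726015_at, had values of 10.60, 10.43 and 10.23 in anti-miR-137 replicates 1 to 3, against 10.66, 10.49 and 10.33 in control replicates 1 to 3. The order by number was the same as for *GPC3*, and the control array was again the higher within every number. Probe set 11726014_at read 6.69, 6.50 and 6.49 with anti-miR-137, against 6.56, 6.47 and 6.63 in the control arrays, with no such order. The dim probe set 11760166_at stayed between 4.55 and 4.60 with anti-miR-137 and between 4.48 and 4.62 with the control. On the dim 11726016_at, control replicate 3 stood apart at 4.88, while the anti-miR-137 arrays had 4.41, 4.25 and 4.26 and control replicates 1 and 2 had 4.36 and 4.37.

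*GPC1* encodes a glypican of neurons and muscle that binds FGF ligands. Its probe set 11717361_a_at gave 9.19, 9.25 and 9.05 in anti-miR-137 replicates 1 to 3, against 9.26, 8.96 and 9.01 in control replicates 1 to 3. Probe set 11717362_x_at gave 7.45, 7.63 and 7.32 with anti-miR-137, against 7.61, 7.41 and 7.33 in the control arrays. The arrays of replicate 2 differed from each other by 0.29 and 0.22 log2 units on the 2 probe sets, more than the numbers did.

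The brightest probe set of *GPC4*, 11727403_at, read 5.01, 4.93 and 4.86 in anti-miR-137 replicates 1 to 3, against 5.13, 4.89 and 4.84 in control replicates 1 to 3. Its other probe sets spanned 3.71 to 4.31 with anti-miR-137 and 3.66 to 4.53 with the control. *GPC5*, the glypican nearest to *GPC3* in sequence, spanned 3.63 to 3.87 with anti-miR-137 and 3.55 to 3.93 with the control over its 2 probe sets. At such dim signals a change in transcript level could go unseen.

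**Figure D1:**
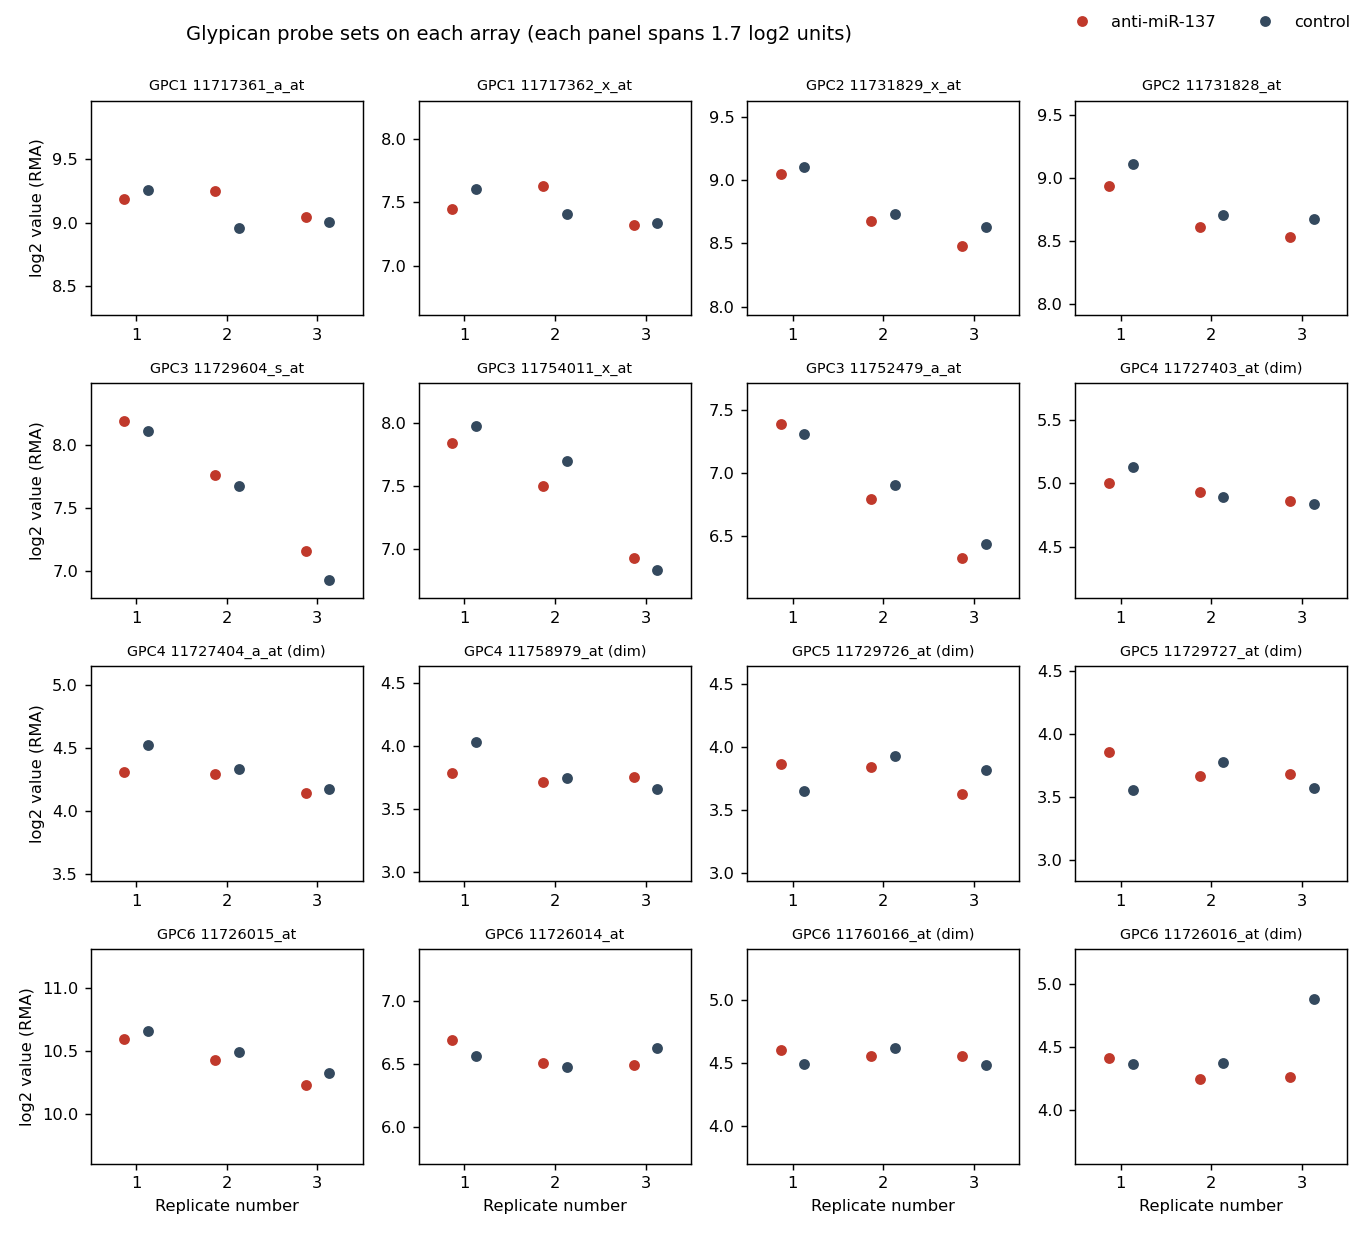
Log2 value after RMA (vertical axis, every panel spanning 1.7 log2 units) of each glypican probe set on each array, by replicate number (horizontal axis), with anti-miR-137 arrays in red on the left of each number and control arrays in dark blue on the right. The 3 panels of *GPC3* have the replicate 1 arrays at the top and the replicate 3 arrays at the bottom in both groups, and *GPC2* and *GPC6* 11726015_at have a smaller difference the same way.

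No difference in a glypican between the treatments passed the test. In limma, fitted over all 49393 probe sets, 0 of the 16 had an adjusted p under 0.05, where the share of all probe sets past it was 0%, and each of the 16 adjusted p-values was 1.00. The unadjusted p was under 0.05 for 0 of 16 as well, against 3.48% of all probe sets. The groups overlapped on all 16 probe sets, whereas 8.09% of all probe sets had groups that do not overlap. Anti-miR-137 cells had the higher mean on 6 of the 16 and the lower mean on 10, and the median log2 fold change was -0.034, against a median of 0.0090 over all probe sets.

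The precision of these comparisons differed widely between members. For *GPC3* 11729604_s_at, anti-miR-137 cells averaged 7.70 ± 0.51 and control cells 7.57 ± 0.59 (SD, n = 3 each). The log2 fold change was 0.13 with a standard error of 0.32 and a 95% confidence interval from -0.61 to 0.87 (adjusted p = 1.00, limma). The other *GPC3* probe sets had log2 fold changes of -0.078 and -0.046, so the 3 did not share a direction, and their intervals reached -0.79 and 0.63. A change of *GPC3* by up to 0.5 log2 units either way therefore lies inside all 3 intervals of this fit. The fit has no term for replicate number, so differences between the numbers widen these intervals. With replicate number as a block the fold changes were the same. Their unadjusted p was then 0.10 on 11729604_s_at, 0.37 on 11754011_x_at and 0.56 on 11752479_a_at (adjusted p = 0.85, 0.92 and 0.95, limma). Intervals from the block fit are not given here.

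For *GPC6* 11726015_at, anti-miR-137 cells averaged 10.42 ± 0.18 and control cells 10.49 ± 0.17 (SD, n = 3 each). Its log2 fold change was -0.075 (-0.35 to 0.20). *GPC2* had log2 fold changes of -0.087 (-0.47 to 0.30) on 11731829_x_at and -0.14 (-0.48 to 0.20) on 11731828_at. *GPC1* had 0.085 (-0.15 to 0.32) on 11717361_a_at and 0.016 (-0.23 to 0.26) on 11717362_x_at. The smallest unadjusted p of the family in this fit, 0.14, belonged to the dim *GPC6* 11726016_at (adjusted p = 1.00, limma), with a log2 fold change of -0.23. Without control replicate 3 that fold change was -0.062. With replicate number as a block, the smallest unadjusted p was instead 0.073, for *GPC2* 11731828_at (adjusted p = 0.85, limma). *GPC4* lay between -0.094 and -0.019 on its 3 probe sets and *GPC5* at -0.021 and 0.10.

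**Figure D2:**
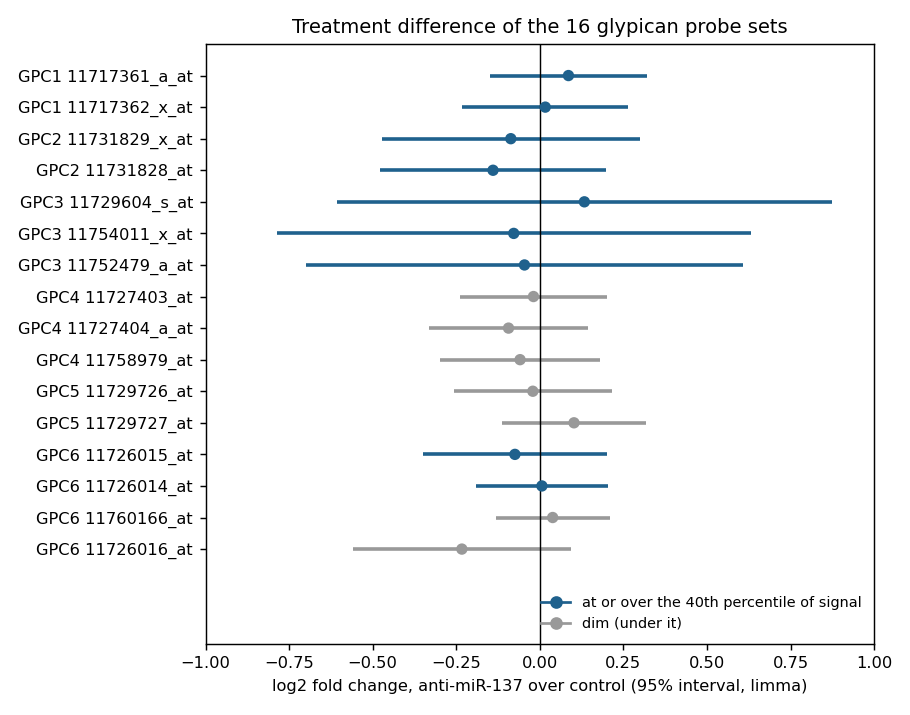
Log2 fold change of each glypican probe set, anti-miR-137 over control (horizontal axis, points), with its 95% confidence interval from limma (lines, 3 arrays per group); dim probe sets are grey. All 16 intervals include 0, and those of *GPC3* are the widest, reaching from -0.79 to 0.87.

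The difference between replicate numbers was far greater than that between treatments for *GPC3*. The spread of a probe set is taken here as the highest minus the lowest of the 3 replicate-number means, each over 1 anti-miR-137 and 1 control array. *GPC3* had spreads of 1.10, 1.02 and 0.97 log2 units, or 2.14-fold, 2.03-fold and 1.95-fold, while the 2 arrays of a number differed by at most 0.23, 0.19 and 0.11. On 11729604_s_at the mean was 8.15 in replicate 1, 7.72 in replicate 2 and 7.05 in replicate 3. The anti-miR-137 array minus the control array was 0.078, 0.092 and 0.23 for numbers 1 to 3 on this probe set, -0.13, -0.19 and 0.090 on 11754011_x_at, and 0.087, -0.11 and -0.11 on 11752479_a_at.

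*GPC2* was the next in spread, with 0.52 on 11731829_x_at and 0.42 on 11731828_at, followed by *GPC6* 11726015_at with 0.35. These 3 also exceeded the largest difference between the 2 arrays of a number, which was 0.15, 0.17 and 0.097. The remaining probe sets had spreads between 0.063 and 0.26. A spread of 0.5 log2 units or more, 1.41-fold, was reached by 4 of the 16 glypican probe sets, all 3 of *GPC3* and 1 of *GPC2*, against 2.89% of all probe sets. Just inside this limit was *GPC2* 11731829_x_at at 0.52 and just outside it *GPC2* 11731828_at at 0.42. With each array centred on its median, 3 probe sets were past the limit, all of *GPC3*. That gene was chosen for this difference, so the counts past the limit only describe the arrays.

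Both arrays of replicate 1 stood above both of replicate 2, and these above both of replicate 3, on 6 of the 16 probe sets, against 3.74% of all probe sets. These were the 3 of *GPC3*, 11731829_x_at of *GPC2*, 11726015_at of *GPC6* and the dim 11727403_at of *GPC4*. Among the 9 probe sets that were not dim, 8 had their highest mean in replicate 1 and their lowest in replicate 3, against 23.3% of all such probe sets. The exception was *GPC6* 11726014_at. Since the family was included for this contrast, these counts describe the arrays and are not evidence for a family-wide pattern.

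**Figure D3:**
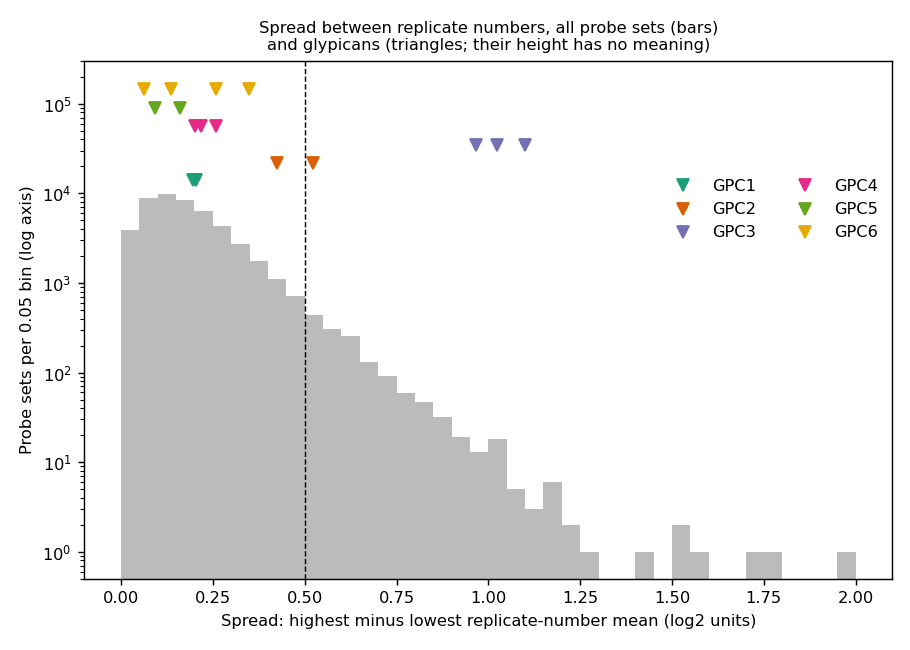
Number of probe sets (vertical log axis, grey bars, all 49393) by the spread between replicate-number means in log2 units (horizontal axis), with the 16 glypican probe sets as triangles coloured by gene, whose height has no meaning. The 3 triangles of *GPC3* lie between 0.97 and 1.10, 1 of *GPC2* lies just past the dashed line at 0.5, and the other 12 lie below it.

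Other measures were also set against the replicate number, and not all of them followed it. The mean of 25 genes of G1/S and DNA replication, relative to its 6-array mean, was -0.19, -0.026 and 0.29 in anti-miR-137 replicates 1 to 3, against -0.27, -0.054 and 0.25 in control replicates 1 to 3, opposite in order to *GPC3*. None of these 25 genes, of which 24 were not dim, had the order of *GPC3*, highest in replicate 1 and lowest in replicate 3. That share was 23.3% over all probe sets that were not dim. A spread of 0.5 or more was reached by 12 of the 25, each by its brightest probe set, against 2.89% of all probe sets. It was reached by 2 of the 10 mesenchymal and 1 of the 8 fibroblast markers below. The 10 mesenchymal neuroblastoma markers stood at 0.14, -0.091 and -0.090 with anti-miR-137, against 0.081, -0.022 and -0.021 in the control arrays, high in replicate 1 of both groups. The 8 fibroblast markers stood at 0.14, -0.043 and 0.0054 with anti-miR-137, against 0.019, -0.084 and -0.040 in control replicates 1 to 3. The hepatic and yolk sac markers, mostly dim, stood at 0.066, 0.084 and -0.054 with anti-miR-137, against 0.061, -0.060 and -0.097 in the controls. Glia and Schwann cell markers stood at 0.0074, 0.067 and -0.060, against 0.041, -0.030 and -0.025. Noradrenergic markers stood at -0.047, 0.033 and -0.035, against 0.027, 0.069 and -0.047. The RNA integrity number was 9.5 in anti-miR-137 replicate 1 and 9.7 in its replicates 2 and 3, against 9.7, 9.8 and 9.7 in control replicates 1 to 3. In bulk RNA, fewer cells that express a gene and less RNA of it per cell cannot be told apart, and the part of these measures in the result was not tested.

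The genes most like *GPC3* were sought among 12639 genes by the root mean square distance between log2 profiles, each centred on its own 6-array mean. The profile of *GPC3* itself had a root mean square size of 0.46. The nearest were *PHLDA1*, a growth-factor-induced gene (distance 0.12 log2 units), *LRP4*, a receptor of the neuromuscular junction (0.13), *NPPA*, which encodes atrial natriuretic peptide (0.13), the gap junction gene *GJA1* (0.14) and *EXD3* (0.15). *PHLDA1*, for example, measured 8.29, 8.18 and 7.28 in anti-miR-137 replicates 1 to 3, against 8.27, 8.02 and 7.25 in control replicates 1 to 3. Like *GPC3*, it was low in the replicate 3 arrays of both groups.

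The genes nearest to the mirror image of *GPC3* were the RNA-binding protein gene *CELF2* (distance 0.097), the presynaptic gene *RIMS4* (0.12), the transcription factor gene *TBX3* (0.12), the ribonucleotide reductase subunit gene *RRM2* (0.14), which is active in S phase, and the utrophin gene *UTRN* (0.14). *CELF2* measured 5.69, 6.04 and 6.70 in anti-miR-137 replicates 1 to 3, against 5.60, 6.01 and 6.68 in control replicates 1 to 3. It was high in the replicate 3 arrays. Each gene stands here by its brightest probe set. Another probe set of *RIMS4*, 11720271_at, was not dim and had the order of *GPC3* instead. Its means were 5.89, 5.70 and 5.54 in replicates 1 to 3. Of the other glypicans, the nearest to *GPC3* was *GPC2* 11731829_x_at at 0.29, and the other probe sets of *GPC3* were at 0.12 and 0.14.

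**Figure D4:**
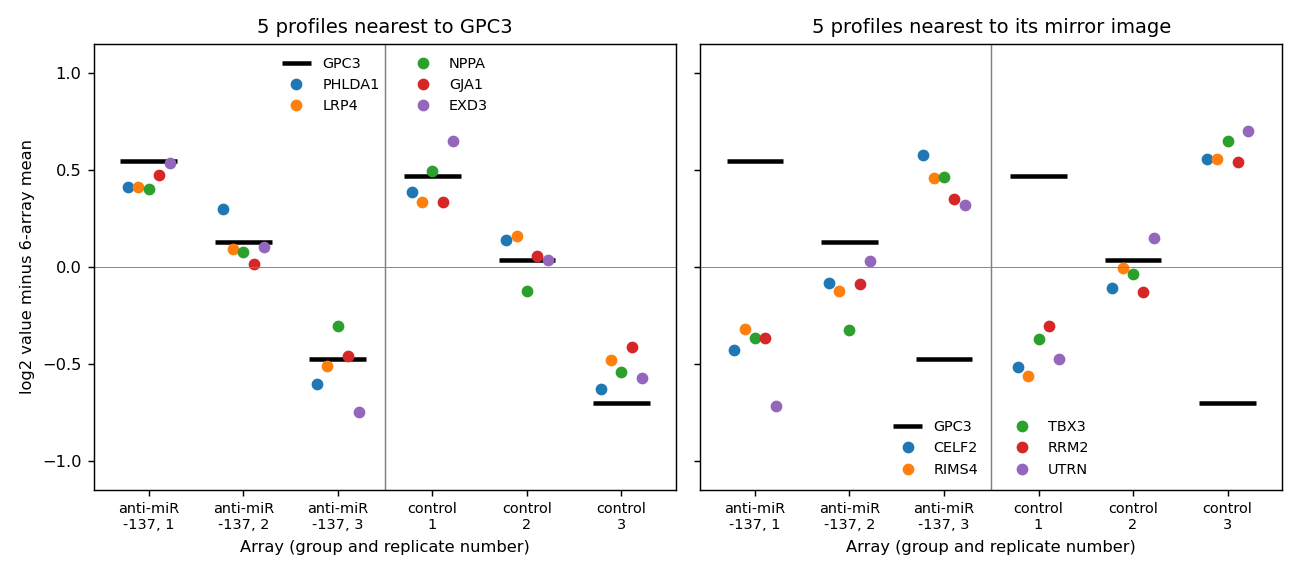
Log2 value minus the 6-array mean (vertical axis) on each array (horizontal axis), anti-miR-137 arrays on the left of each panel and control arrays on the right, for *GPC3* (black bars) and for the 5 genes nearest to it (left panel) or to its mirror image (right panel). The 5 genes on the left are above their mean in both replicate 1 arrays and below it in both replicate 3 arrays, and the 5 on the right the reverse.

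Some glypican genes lie side by side on the genome, and the measured spread between replicate numbers was unequal between neighbours. In the RefSeq table, *GPC3* and *GPC4* are nearest neighbours on chromosome X and *GPC5* and *GPC6* on chromosome 13, counting genes with a probe set. On the brightest probe sets *GPC3* had a spread of 1.10 and the dim *GPC4* one of 0.22, while *GPC6* had 0.35 and the dim *GPC5* 0.16. At dim signals a difference could go unseen, so these spreads do not show that the transcripts of neighbours differed. All 3 probe sets of *GPC4* had the order of *GPC3* by replicate means, with 5.07, 4.91 and 4.85 in replicates 1 to 3 on 11727403_at. On the other side of *GPC3*, *CCDC160* was dim, with a spread of 0.20. Beside *GPC5* lies *MIR17HG*, host of a microRNA cluster that promotes growth, which had 7.24, 7.43 and 7.67 in anti-miR-137 replicates 1 to 3, against 7.18, 7.46 and 7.53 in control replicates 1 to 3. Beside *GPC2* on chromosome 7, the sulfotransferase gene *GAL3ST4* measured 8.30, 7.90 and 7.56 with anti-miR-137, against 8.31, 8.15 and 7.75 in the control arrays. *GAL3ST4* thus had the same order by number as *GPC2* on this probe set, with a spread of 0.65, and the dim *STAG3*, on the other side of *GPC2*, had that order with 0.28. The order of the glypican was not found for 4 other neighbours. *TGDS*, beside *GPC6*, had its lowest mean in replicate 2 (spread 0.10), and *ANKMY1*, beside *GPC1*, had its highest in replicate 3 (0.054). The dim *OTOS*, beside *GPC1*, had its highest in replicate 2 (0.38), and the dim *TFDP3*, beside *GPC4*, its highest in replicate 3 (0.14).

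Promoter windows from RefSeq were used for *GPC1*, *GPC2*, *GPC4*, *GPC5* and *GPC6*, 5 of the 6 members, and that of *GPC3* was not analysed here. Those of *GPC2*, *GPC6* and *GPC1* are shown because their brightest probe sets were not dim and shared the order of replicate means of *GPC3*. Their spreads were 0.52, 0.35 and 0.20. For *GPC1* the order held for the means only and in neither group alone, and its replicate 2 arrays differed by 0.29, more than its spread. The dim *GPC4* 11727403_at had the same order with a spread of 0.22. Its window, with 2 GC boxes and 32 CpG, is not shown. The windows shown are the 250 bases before the start site, on the strand of the gene, build GRCh38.p14. They lie at chr7:100177382-100177631 (minus strand) for *GPC2*, chr13:93226557-93226806 (plus strand) for *GPC6* and chr2:240435413-240435662 (plus strand) for *GPC1*. Capitals mark matches on either strand to the GC box GGGCGG, the CCAAT box CCAAT and the TATA box TATAAA; neighbouring GC boxes may share a base.
GPC2: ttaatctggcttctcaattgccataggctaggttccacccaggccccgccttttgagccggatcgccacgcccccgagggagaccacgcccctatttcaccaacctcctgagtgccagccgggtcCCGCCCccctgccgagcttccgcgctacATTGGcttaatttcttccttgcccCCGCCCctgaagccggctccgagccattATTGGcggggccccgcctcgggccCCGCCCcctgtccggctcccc
GPC6: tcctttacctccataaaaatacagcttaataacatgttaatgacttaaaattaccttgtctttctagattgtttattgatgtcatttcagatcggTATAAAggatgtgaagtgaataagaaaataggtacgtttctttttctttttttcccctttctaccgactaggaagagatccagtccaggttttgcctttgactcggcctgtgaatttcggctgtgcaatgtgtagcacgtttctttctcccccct
GPC1: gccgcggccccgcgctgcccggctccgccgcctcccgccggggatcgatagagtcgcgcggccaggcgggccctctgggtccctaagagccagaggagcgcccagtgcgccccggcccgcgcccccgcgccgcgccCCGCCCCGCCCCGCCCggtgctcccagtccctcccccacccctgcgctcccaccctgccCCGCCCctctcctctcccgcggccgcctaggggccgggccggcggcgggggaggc
The *GPC2* window held 3 GC boxes, 2 CCAAT boxes and 19 CpG dinucleotides. The *GPC6* window held 1 TATA box, no GC box and 6 CpG, and the *GPC1* window 4 GC boxes and 36 CpG. The GC box was thus present in the windows of *GPC2* and *GPC1* and not in that of *GPC6*. A GC box was found in 42.6% of all 35116 promoter windows of this length, a CCAAT box in 32.0% and a TATA box in 10.7%. A search for the E-box CACGTG, present in 6.34% of windows, found no match in the windows of these 5 members.

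Genes that build, modify, release or read glypicans did not pass the test either. They were listed in 7 groups of 138 genes in all, of which 133 were measured and 104 were not dim, each represented by its brightest probe set. In limma 0 of the 133 had an adjusted p under 0.05, against 0% of all probe sets, and 5 had an unadjusted p under 0.05, or 3.76%, against 3.48%. The shares of all probe sets are not limited to the brightest probe set of each gene. Anti-miR-137 cells had the higher mean for 57 of the 133 and the lower mean for 76, with a median log2 fold change of -0.012.

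Enzymes that start and polymerise the heparan sulfate chain had the higher mean in anti-miR-137 cells for 7 of 12 genes and the lower for 5. *XYLT1*, a xylosyltransferase that starts the chain, measured 9.30, 9.20 and 9.32 with anti-miR-137, against 9.44, 9.43 and 9.66 in the control arrays, so that its groups did not overlap. Its log2 fold change was -0.23 with a standard error of 0.088 (adjusted p = 1.00, limma). *EXTL1*, an exostosin-like glycosyltransferase, was dim and had 0.18.

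Among 18 measured enzymes of chain modification, 8 were higher and 10 lower, led by the sulfotransferase gene *HS3ST5* at -0.19 and by the dim *PAPSS2*, which makes the sulfate donor, at 0.14. Another probe set of *HS3ST5* had 0.054, and the 3 others of *PAPSS2* had -0.17, -0.0036 and 0.16. Among 19 measured genes of chain cleavage, chain breakdown and glypican release, 9 were higher and 10 lower. *GDPD5*, which encodes the glypican-releasing phosphodiesterase GDE2, had 0.18, with 6.67, 6.86 and 6.58 with anti-miR-137 against 6.58, 6.55 and 6.45 in the control arrays. The lowest anti-miR-137 array and the highest control array had the same value. *GPLD1*, a phospholipase that cuts GPI anchors, had 0.19 on its brightest probe set, and 0.20 and -0.0083 on its others, all dim. The groups did not overlap on the probe set with 0.20 (adjusted p = 1.00, limma).

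Of 11 other heparan sulfate proteoglycan genes, 2 were higher and 9 lower, with a median log2 fold change of -0.098 and 0 past the adjusted threshold. The syndecan gene *SDC3* had -0.15 on its brightest probe set and -0.040 on its other, and the agrin gene *AGRN*, a synapse organiser, -0.19 on its brightest probe set and 0.14 on its other. Of 27 genes of GPI anchor synthesis, 12 were higher and 15 lower, with *PGAP1* at -0.17 and *PIGL* at -0.16. The 4 other probe sets of *PGAP1* lay between -0.13 and -0.018, and the 3 others of *PIGL*, all dim, had -0.048, 0.064 and -0.044. Hedgehog pathway genes were split 7 to 7, with the ligand gene *IHH* at 0.27 on 1 probe set and 0.020 on the other, and the ligand gene *SHH* at -0.18 on a dim probe set.

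Among 32 measured ligands and receptors that bind glypicans, 12 were higher and 20 lower. The Wnt ligand gene *WNT3* had -0.29 on 1 probe set and -0.072 on the other, and *WNT3A* had 0.34, with 6.59, 6.71 and 6.32 with anti-miR-137 against 6.32, 6.17 and 6.12 in the control arrays. All 3 probe sets of *WNT3A* had higher means in anti-miR-137 cells (0.098 to 0.34), and none passed the test in limma (adjusted p = 1.00).

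A spread of 0.5 log2 units or more between replicate numbers was found for 7 of the 133 genes, or 5.26%, against 2.89% of all probe sets. The genes stand by their brightest probe sets, whereas the share of all probe sets includes dim ones, so these shares are of unlike sets. The syndecan gene *SDC2* stood at 10.11, 9.52 and 9.71 in anti-miR-137 replicates 1 to 3, against 10.06, 9.59 and 9.71 in control replicates 1 to 3. It shared the high replicate 1 of *GPC3* but was lowest in replicate 2, as was the sulfotransferase gene *HS6ST3* (spread 0.71). The sulfotransferase gene *HS6ST1* ran opposite to *GPC3*, with 8.53, 8.63 and 8.94 with anti-miR-137 against 8.48, 8.73 and 9.09 in the control arrays.

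The Wnt receptor gene *FZD5* also ran opposite to *GPC3*, with 6.44, 7.10 and 7.46 with anti-miR-137, against 6.69, 7.52 and 7.76 in the control arrays (spread 1.04). *FGFR3*, an FGF receptor gene, had a spread of 0.75, with its highest mean in replicate 1 and its lowest in replicate 3. The anti-miR-137 arrays alone, at 6.99, 6.36 and 6.46, did not have that order, and arrays of a number differed by up to 0.42. On the other, dim probe set of *FGFR3* the spread was 0.13, with the highest mean in replicate 2. The Slit receptor gene *ROBO2* (0.58) was highest in replicate 2. The glycosyltransferase gene *EXT1* had 0.52, but its 2 arrays of replicate 2 differed by 0.62.

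**Figure D5:**
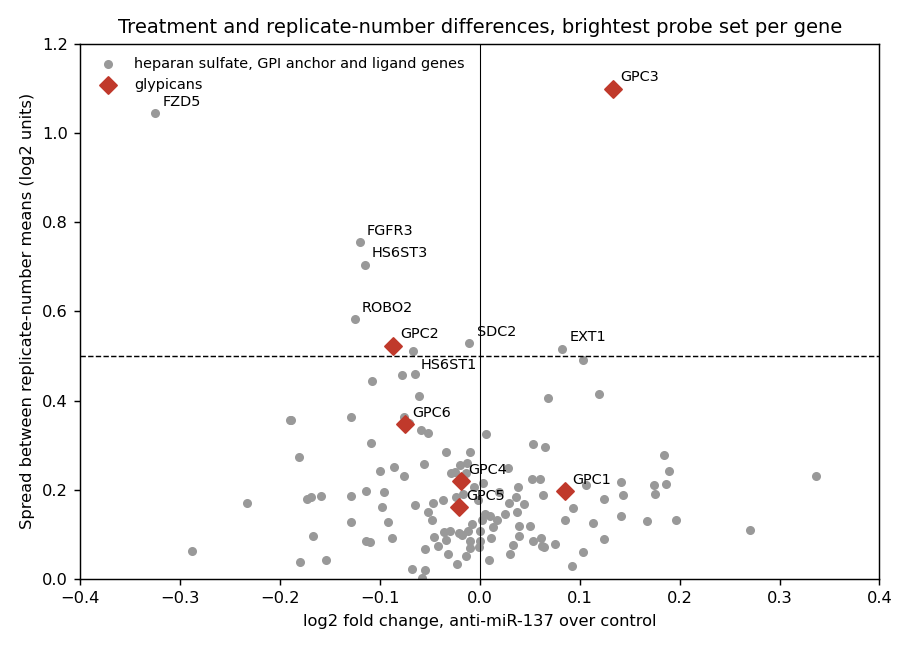
Log2 fold change, anti-miR-137 over control (horizontal axis), against the spread between replicate-number means in log2 units (vertical axis) for the brightest probe set of each glypican (red diamonds) and of 133 genes of heparan sulfate, GPI anchors, Hedgehog signalling and glypican ligands (grey points). *GPC3* at 1.10 and *FZD5* at 1.04 have the 2 highest spreads, and genes past the dashed line at 0.5 are named.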

How the data were processed

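The 6 arrays were 1-colour oligonucleotide arrays hybridised with biotin-labelled RNA amplified from 100 ng of total RNA, per the labels' protocols. Values were made with RMA in R 3.0.1, per the submitters' processing notes, and the authors deposited them as log2 values per probe set; a shift of all transcripts together cannot be seen in them. The 102 control probe sets were left out. Of the rest, 45278 had 1 symbol in the platform annotation, 1333 several and 2782 none; only those with 1 were named. Treatment was tested by limma 3.58.1 under R 4.3.3 (group as the only term, two-sided) over all 49393 probe sets with no filter, so that every glypican probe set was tested, with Benjamini-Hochberg adjustment and a threshold of 0.05. This step was tested on simulated data.

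The members, gene lists and tests were chosen with earlier results of these data known. Named genes were every glypican probe set, the 2 genes with the smallest p in each pathway list, pathway genes with a spread of 0.5 or more, the 5 genes nearest to *GPC3* and to its mirror image, and the nearest genes on the chromosome. Alternatives were filters at the 40th and 60th percentile, 1 row per gene, median centring, cyclic loess, array weights, a trended variance prior, the RNA integrity number, replicate number as a block and leaving out each array. Same-numbered arrays had correlations of deviations of 0.51, 0.037 and 0.62. Not every pair was over 0.1, so by this rule the numbers were not taken as pairs in the main fit. The value of 0.037 belonged to replicate 2. Where values run in order of the replicate number, as for *GPC3*, replicate 2 can lie near the mean, with small deviations. Its low correlation therefore cannot show that the numbers are not pairs.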

Additional observations from a re-analysis of the deposited data

How the results depend on the processing

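Under all 15 alternatives, no glypican probe set that was tested had an adjusted or an unadjusted p under 0.05 in limma. The smallest unadjusted p was 0.058, for *GPC2* 11731828_at with the RNA integrity number as a covariate (log2 fold change -0.32). The smallest adjusted p was 0.85. Over all probe sets 0 passed the adjusted threshold each time. The count at an unadjusted p under 0.05, 1717 in all, was 744 with the filter at the 40th percentile (29636 tested), 354 at the 60th (19757 tested), 335 with 1 row per gene (12639 tested) and 2977 when arrays were weighted. Leaving out 1 array gave 1284 to 2596, the highest being without control replicate 1. The fit with replicate number as a block gave 2840, and the count among the pathway and marker genes was then 11 instead of 6; the block changed no other call. Of 212 log2 fold changes of the 16 glypican probe sets under alternatives, 28 changed sign, none of a called difference. *GPC6* 11726014_at was -0.010 with median centring, -0.015 with cyclic loess and -0.095 with the RNA integrity number as a covariate, under which *GPC3* 11729604_s_at was -0.13. With array weights *GPC3* 11752479_a_at was 0.024 and *GPC4* 11727403_at 0.017. With an array left out, the range was -0.064 to 0.096 for *GPC1* 11717362_x_at, -0.24 to 0.054 and -0.26 to 0.00011 for *GPC2* 11731829_x_at and 11731828_at, -0.19 to 0.40, -0.41 to 0.17 and -0.32 to 0.21 for *GPC3* 11729604_s_at, 11754011_x_at and 11752479_a_at, -0.077 to 0.069 and -0.14 to 0.050 for *GPC4* 11727403_at and 11758979_at, -0.097 to 0.053 for *GPC5* 11729726_at, and -0.16 to 0.019 and -0.058 to 0.042 for *GPC6* 11726015_at and 11726014_at. The count of glypican probe sets with a spread of 0.5 or more, 4, was 3 to 5 with an array left out. The cause of these shifts was not tested.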

Other observations

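Probe sets of 1 gene did not always share the difference between replicate numbers. *FZD5* had spreads of 1.04 and 0.88 log2 units on 11721426_at and 11757573_s_at and of 0.028 to 0.28 on its 3 other probe sets, all with means at or over the 40th percentile. *GAL3ST4* had 0.65 on 11728763_x_at and 0.19 on 11748392_a_at. For *PHLDA1*, the gene nearest to *GPC3*, all 4 probe sets had their lowest mean in replicate 3, with spreads of 0.44 to 1.02. Other genes near *GPC3* were less uniform. *GJA1* had 0.84 on 11716329_s_at, 0.079 on 11716328_a_at, also not dim, and 0.022 and 0.041 on its dim probe sets. *EXD3* had the order of *GPC3* on 11759905_a_at (1.26) and 11759906_x_at (0.99). Its 11760025_x_at, also not dim, was highest in replicate 2 (0.25). *SDC2* had spreads of 0.33 to 0.53 on 6 probe sets, each with its highest mean in replicate 1 and its lowest in replicate 2.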
